A study of Oryza sativa with 36 samples.

Results

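The young panicle of rice at booting, the developing flower head still wrapped in the flag leaf sheath, was compared between droughted and watered plants of the line DK151. Of the 36 arrays of the series, 6 measured young panicles, 3 from droughted and 3 from control plants, and all 6 were chosen by their deposited labels. DK151 is a drought-tolerant line fixed by selfing from a cross between introgression lines in the IR64 background, so controls and droughted plants share 1 genotype, and no sensitive line stands beside it. Plants grew in a greenhouse in tubes of baked clay with nutrient solution, each array came from an individual plant, and drought was imposed by draining the solution until the leaves were fully rolled at noon, which took 2 days at booting. Droughted leaves were sampled at a relative water content of 65 to 75%. The water status of the panicles themselves was not used here. The other 30 arrays are of leaves and roots at tillering and panicle elongation and of leaves at booting. They share 1 estimate of the spread with the panicle arrays, so they enter every standard error and adjusted p below. Their own values are given only where the panicle is set against them.

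Plants that lose water make abscisic acid, which removes the block that protein phosphatases of class 2C place on SnRK2 kinases, and the kinases then switch on protective genes such as those of dehydrins and other late embryogenesis abundant (LEA) proteins. Inside the young panicle the anthers form at this stage. Their inner layer, the tapetum, feeds the developing pollen and supplies the lipids and polymers of the pollen wall. Water deficit around booting is known to harm male fertility in rice.

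Each array gave 1 normalized intensity per probe set (a group of probes that reports 1 transcript), and array medians of the panicle ran from 60.1 to 62.4. Replicate panicle arrays had a mean correlation across probe sets of 0.988 to 0.992 with each other, against 0.944 to 0.992 over the whole series. The tissue matched its label. The anther gene RTS lay between 8461 and 9256 on the 6 arrays, against group levels of 40.4 to 97.6 in leaves and roots, and the floral MADS-box factor MADS1 lay between 4129 and 4709, against 32.6 to 272. Summed over 18 floral and anther markers, control panicles gave 40435 to 46848, droughted panicles 35079 to 38132, and leaf and root arrays at most 4557. Leaf markers were present, with sums over 16 probe sets of 33401 to 37552 in control and 22243 to 26703 in droughted panicles. In leaves at booting they summed to 85254 to 90929 in controls and 30455 to 43378 under drought. In droughted leaves at panicle elongation they summed to 18805 to 29707, so panicle sums overlapped those of droughted leaves. In panicles the floral and leaf marker sums were both lower under drought with no overlap. The 7 root markers summed to 904 to 1035 in control and 1121 to 1479 in droughted panicles, higher under drought with no overlap, against 14022 and more in control roots. The part of these sums in the results was not tested. No marker stood at 0. In a whole organ, fewer cells of a type and less RNA per cell cannot be told apart.

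A probe set was counted as up- or down-regulated where limma gave a Benjamini-Hochberg adjusted p under 0.05 and the change was 5-fold or more. Of 57258 rice probe sets, 941 passed (1.64%), 371 of them up-regulated (0.648%) and 570 down-regulated (0.995%). At a minimum of 2-fold 5919 passed (10.3%), of which 2414 (4.22%) were higher and 3505 (6.12%) lower. None of the 941 had overlapping arrays, which was also true of 47.8% of all probe sets. The median change of all probe sets was -0.04 on the log2 scale. The shares of all probe sets, 1.64% at 5-fold and 10.3% at 2-fold, are the background for the list counts below. Through the array annotation, 713 of the 941 matched 1 gene each, 240 genes among the up-regulated and 421 among the down-regulated. A symbol or a description was available for 97 up-regulated and 281 down-regulated probe sets, so the named genes below cover the falls better than the rises.

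Arrays within a group did not weigh equally. Drought replicate 2 was the most extreme droughted array for most DEGs (differentially expressed genes): it was the highest of the 3 at 86.8% of the up-regulated probe sets, against 36.3% of all probe sets, and the lowest at 83.3% of the down-regulated, against 40.4%. Without it 309 probe sets were up- and 440 down-regulated, and 731 of the 941 still passed. Control replicate 1 was 5-fold or more below both other controls at 23 probe sets, counting only those that reached 100 on some control array. Of these 23, 14 were up-regulated, among them several dehydrins and small heat shock genes. Without it 336 were up- and 547 down-regulated, and 838 of the 941 still passed. Where leaving out either array ended a call or moved a named value by over 1.5 times, the value without it is given below.

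Among genes known to answer dehydration, the LEA proteins and dehydrins had the highest median change of the lists drawn up. Of 11 probe sets for 8 genes, 8 were up-regulated and 0 were down-regulated, and the list's median change was 3.25 against -0.04 for all probe sets. That median was 2.23 without control replicate 1 and 4.02 without control replicate 2. Dehydrins are thought to shield membranes and proteins as water is lost. RAB16B, a dehydrin, had the largest rise of a named gene over all 6 arrays. Its intensities were 32.4, 199 and 158 on control replicates 1 to 3 and 5056, 6282 and 5207 on droughted ones, a log2 change of 5.77 ± 0.61 (SE, n = 3 and 3 arrays; limma adjusted p = 1.52e-08). The control array at 32.4 lay apart from the other two, and without it the change was 4.95, below that of Os05g0543000 (5.91) and others in the same fit. The dehydrin rab25 had tight controls, at 76.8, 88.7 and 93.7, and reached 1774, 3183 and 1857 (4.67 ± 0.30, adjusted p = 9.75e-13). EM, an early methionine-labelled LEA protein first known from ripening seeds, went from 36.7, 32.4 and 35.2 to 190, 412 and 198 (2.84 ± 0.31).

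RAB21, by its first probe set, stood at 16568, 17328 and 16800 under drought, and at 3989 and 3401 in 2 of the controls, while control replicate 1 stood at 56.9. Its change of 4.20 ± 1.0 (adjusted p = 0.00173) was 2.20 without that array, below 5-fold. LEA19 showed the same picture, with controls at 37.1, 865 and 805 and droughted arrays at 2476, 3649 and 2452. Its change was 3.25 ± 0.88 over all arrays and 1.75 without control replicate 1 (adjusted p = 0.113). RAB16D went from 58.9, 450 and 405 to 4114, 5275 and 4139, and its change of 4.34 ± 0.66 was 3.39 without the same array. RAB16C had no such array, with 192, 263 and 260 against 1844, 3021 and 1786 (3.19 ± 0.33). Without control replicate 1 the list had 5 up-regulated probe sets in place of 8, and RAB21, with 2 probe sets, and LEA19 were the ones lost. Dhn1 was the member that did not pass even at 2-fold: its 3 probe sets gave 0.75 ± 0.16, 0.74 ± 0.19 and 0.58 ± 0.15. The RAB16 genes are close relatives, and probe sets may read more than 1 of them.

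**Figure D1:**
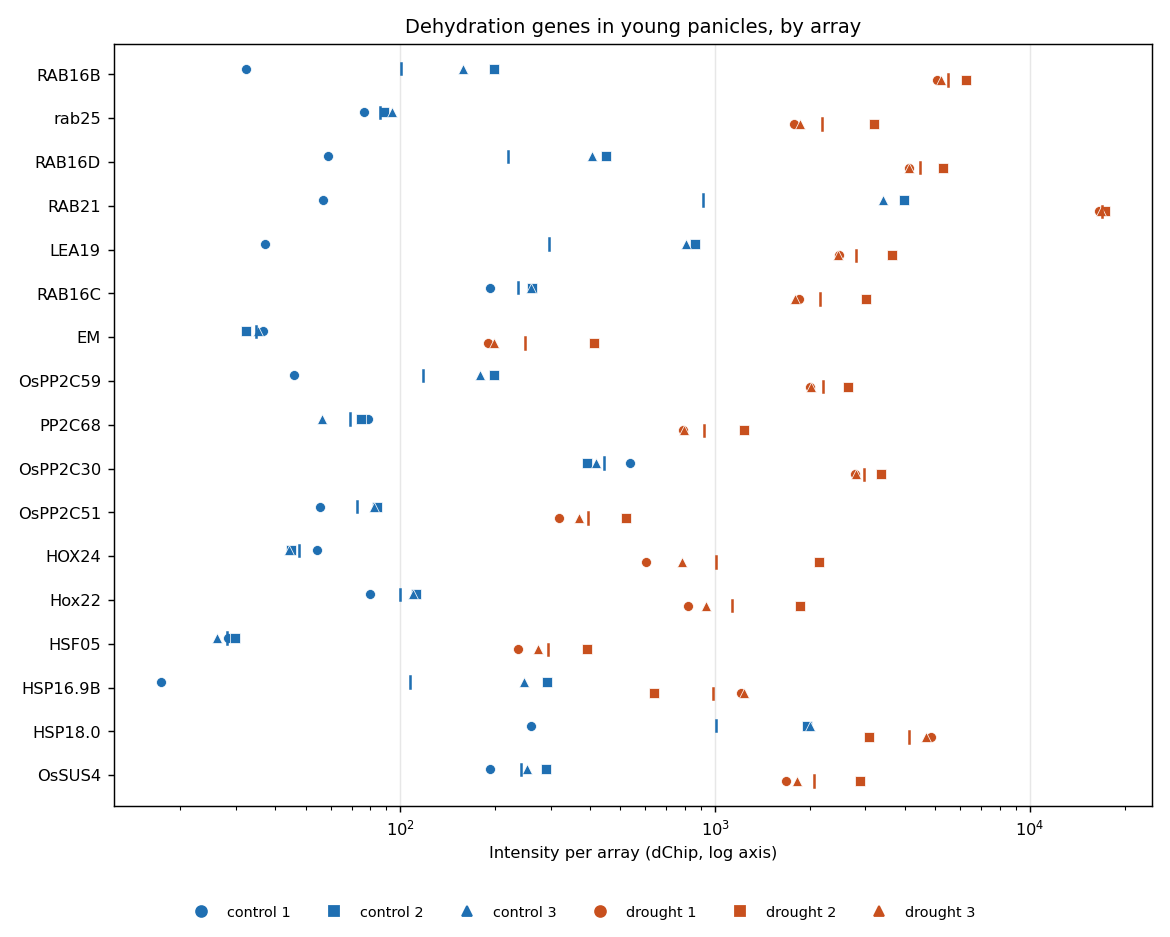
Intensity of 17 dehydration and heat shock genes on each of the 6 young panicle arrays, on a log axis; blue symbols are controls, orange symbols droughted plants, the symbol shape gives the replicate number and the vertical tick the geometric mean of 3 arrays. Control 1 (blue circle) lies far to the left of the other controls for RAB21 (56.9 against 3401 and 3989), LEA19 and HSP16.9B, and drought 2 (orange square) is the highest droughted array for HOX24 (2133).

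The protein phosphatases 2C, a large family of which 1 clade holds back abscisic acid signalling, did not move together. Of 72 probe sets for 55 genes, 4 were up-regulated and 1 was down-regulated (6.94%, against 1.64% of all probe sets), with a median of -0.03. At 2-fold 9 were higher and 7 lower (22.2%, against 10.3%). OsPP2C59 rose from 46, 198 and 179 to 2006, 2632 and 2020 (4.22 ± 0.36, adjusted p = 2.53e-10), and its change was 3.55 without control replicate 1. PP2C68 rose from 79, 74.8 and 56.5 to 791, 1235 and 794 (3.73 ± 0.34). OsPP2C30 rose by 2.74 ± 0.52. OsPP2C51 rose by 2.44 ± 0.20, which dropped just under 5-fold without control replicate 1 (2.25) or without drought replicate 2 (2.24), and its other, dimmer probe set gave 1.62 ± 0.18. OsPP2C73 went the other way, from 1436, 1241 and 1215 to 258, 159 and 254 (-2.57 ± 0.29), and its other 3 probe sets gave -2.25, -2.11 and -0.09.

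Other parts of the pathway changed less. None of the 10 SnRK2 kinase probe sets passed at 5-fold, and 2 passed at 2-fold, OsSAPK1 (1.31 ± 0.29, adjusted p = 0.000921) and OsSAPK10 (1.05 ± 0.20, and 0.95 without control replicate 1). ABA8OX1, an abscisic acid 8'-hydroxylase that breaks the hormone down, rose 2.42-fold, from 188, 248 and 206 to 397, 779 and 440 (adjusted p = 0.0029). It was the 1 of 3 probe sets for abscisic acid metabolism to pass at 2-fold, and without drought replicate 2 it did not (0.98).

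Heat shock genes gave smaller changes. Of 26 small heat shock protein probe sets, which code for chaperones that keep unfolding proteins soluble, 1 passed at 5-fold, and at 2-fold 9 were higher and 2 lower (median 0.73). HSP16.9B went from 17.3, 292 and 246 to 1204, 641 and 1234 (3.19 ± 0.60, adjusted p = 0.000109), and without control replicate 1 the change was 1.88 and no probe set of the list passed at 5-fold. At HSP18.0 the controls were 260, 1952 and 1994 and the droughted arrays 4844, 3073 and 4677 (2.03 ± 0.43), which was 1.06 without control replicate 1. The other 2 probe sets of HSP18.0 gave 0.28 and 0.15. HSP26.7 rose 4.12-fold and HSP18.8 fell by 1.81 ± 0.15, from 2977, 2257 and 2204 to 714, 634 and 767. Without control replicate 1 the list counted 6 higher and 1 lower at 2-fold. Drought replicate 2, the highest droughted array for most rises, was the lowest for HSP16.9B, HSP18.0 and HSP26.7. Among 13 probe sets of larger chaperones, 5 were higher at 2-fold, among them 3 of the 5 probe sets of the HSP90 gene HSP81-3 (1.32 to 2.0, with 0.60 and 0.28 at the others), and 2 were lower, of which 1 was BIP1, the chaperone of the endoplasmic reticulum (-1.42).

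Many transcription factors of the homeobox family pair a homeodomain with a leucine zipper. Of 62 homeobox probe sets 6 were up-regulated and 2 down-regulated (12.9%, against 1.64% of all probe sets), while the list's median was -0.32. HOX24 had the largest rise, from 54.2, 45.1 and 44.3 to 601, 2133 and 787 (4.39 ± 0.32, adjusted p = 9.43e-12). HOX12 rose by 3.96 ± 0.29, hb1 by 3.57 ± 0.19, Hox22 by 3.50 ± 0.32, hox14 by 3.45 ± 0.32 and HOX7 by 2.89 ± 0.30. The control and droughted arrays of all 6 were far apart, and drought replicate 2 was the highest array for each. A second probe set of hb1 gave -0.46, in the other direction. HOX7 had a second probe set at 2.31 ± 0.28, a hair under 5-fold. Hox28 fell from 191, 337 and 306 to 20.1, 18.5 and 21.6 (-3.76 ± 0.20), and HOX2 fell from 1058, 1160 and 1088 to 137, 88.4 and 146 (-3.18 ± 0.20). Of these rises, 2 were larger than elsewhere by the call rule: hb1 by 3.17 ± 0.20 and hox14 by 3.10 ± 0.35 above the mean of the other 5 drought changes.

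Of 29 probe sets for heat stress transcription factors, HSF05 alone was up-regulated, from 28.3, 29.8 and 26.2 to 237, 391 and 274 (3.39 ± 0.53). HSF03 reached 4.97-fold, under the minimum. Of 13 NAC factor probe sets 5 were higher at 2-fold and 0 lower, and 3 were higher without drought replicate 2 or control replicate 3. NAC068 passed at 5-fold, from 41.6, 51 and 48 to 381, 532 and 368 (3.17 ± 0.36). JAMYB, a MYB factor named for its induction by jasmonate, rose by 2.72 ± 0.33, which was 2.23 without drought replicate 2. The bZIP factors BZIP06 (-2.88 ± 0.23) and BZIP02 (-2.34 ± 0.25) fell, and BZIP02 was at the edge of the call, at -2.20 without drought replicate 2. None of the 19 AP2/ERF, 15 bHLH or 7 WRKY probe sets found by symbol passed at 5-fold. The lists of NAC, AP2/ERF, bHLH and WRKY factors hold only members found by symbol. The study's tables name panicle DEGs in each of these families, so the counts here do not describe whole families. The MADS-box factors, which set floral organ identity, had 0 of 39 at 5-fold, and at 2-fold 4 were higher and 0 lower. That share at 2-fold, 10.3%, was near that of all probe sets (10.3%). MADS16, at 6820, 6163 and 6587 in controls and 6722, 6033 and 6549 under drought, changed by -0.02 ± 0.22.

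Anther genes split. The list of anther, tapetum and pollen wall genes held 15 probe sets, of which 2 were down-regulated, 0 up-regulated, and the others did not pass even at 2-fold. CYP703A3, a cytochrome P450 that hydroxylates fatty acids for the pollen wall and the anther cuticle, fell from 2627, 1541 and 1485 to 31.8, 96.7 and 32.1, a change of -5.30 ± 0.31 (39.3-fold lower, adjusted p = 1.43e-13). AP25, an anther aspartic protease that acts in the death of the tapetum, fell from 4079, 3654 and 3878 to 706, 314 and 851 (-2.75 ± 0.26, and -2.32 without drought replicate 2, where it no longer reached 5-fold). Against these, RTS gave 9256, 9087 and 8812 in controls and 8464, 8461 and 8867 under drought (-0.07 ± 0.16), and OsRAFTIN1, which carries sporopollenin precursors to the microspore, gave 4384, 3191 and 4072 against 3438, 2369 and 3235, where the arrays overlapped (-0.37 ± 0.18, adjusted p = 0.13). MSP1, the receptor kinase that limits the number of cells entering sporogenesis, changed by -0.83 ± 0.14, and TDR, a bHLH factor of tapetum degeneration, by -0.82 ± 0.33 (adjusted p = 0.0672). Of 16 meiosis probe sets, 0 passed at 5-fold and 1 at 2-fold, the recombinase DMC1, which went from 36.2, 72.7 and 55.6 to 124, 211 and 146 (1.57 ± 0.24).

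Further genes that the study's tables describe as anther genes fell steeply. These descriptions cover genes the study had selected on the same arrays, so the counts describe the selection and carry no independent evidence of direction. Os04g0543700, described as a meiotic serine proteinase, fell from 2240, 1280 and 1324 to 70.5, 52.9 and 113 (-4.38 ± 0.22, adjusted p = 6.03e-15). Os10g0484800, described as the anther-specific protein YY2, fell from 2798, 2086 and 2073 to 272, 184 and 343 (-3.15 ± 0.20). Os01g0529800, described as the very-long-chain fatty acid condensing enzyme CUT1, fell by 3.08 ± 0.42. The largest fall of all named genes was that of Os10g0524500, described as mandelonitrile lyase-like, from 1895, 1192 and 1153 to 9.64, 57.5 and 4.58 (-6.66 ± 0.49, adjusted p = 1.42e-11), which was -7.69 without drought replicate 2. Drought replicate 2 was the highest droughted array there and for CYP703A3, unlike at most falls. In leaves and roots its group levels were 6.17 to 25.8.

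Among the DEGs, most genes described for surface lipids and wall polymers fell. The family counts here cover DEGs alone, and the descriptions cover genes selected on the same arrays. All 12 GDSL lipases among the DEGs fell, Os02g0110000 most, from 860, 563 and 432 to 14, 64.2 and 18.5 (-4.54 ± 0.33, and -5.21 without drought replicate 2). Of 7 lipid transfer proteins 6 fell, with Os01g0691300 at 1868, 1132 and 1064 in controls and 51.4, 60.6 and 55.6 under drought (-4.56 ± 0.24). All 3 fasciclin-like proteins fell, Os02g0308400 from 575, 655 and 671 to 19, 17.2 and 16.6 (-5.17 ± 0.26). The polygalacturonase Os03g0808000, of a class that cuts pectin, fell from 1570, 552 and 575 to 34.9, 18.8 and 29.2 (-4.89 ± 0.26). The putative sugar transporter Os11g0637200 fell by 4.83 ± 0.34 and the peroxidase Os07g0676900 by 4.80 ± 0.15. Os03g0112900, described as an aldehyde 5-hydroxylase of lignin synthesis, fell by 4.66 ± 0.30, and the glycoside hydrolase Os01g0296700 by 4.84 ± 0.26. At the GASA5-like gene Os09g0414900 (-4.70 ± 0.53) the controls themselves were apart, at 97.7, 748 and 766, and the change was -5.68 without control replicate 1.

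A smaller group of pollen-type wall genes rose in the same arrays. EXPB9, a beta-expansin (a protein that loosens grass cell walls), went from 74.5, 35.7 and 41.2 to 1485, 1281 and 1202 (4.78 ± 0.17, adjusted p = 7.13e-18). All 5 probe sets described as pollen allergens among the DEGs rose, and here too the descriptions cover genes selected on the same arrays. Os04g0317800, of the Lol p2 family, went from 16.4, 15 and 14.9 to 731, 775 and 470 (5.38 ± 0.19), and its family members Os06g0655200 and Os04g0317500 rose by 4.52 ± 0.26 and 3.87 ± 0.26. The change of Os04g0317500 was 2.18, under 5-fold, when all values under the 25th percentile of the data were raised to it. Os06g0556600, with a pollen Ole e 1 domain, went from 14.9, 16.2 and 12.6 to 376, 377 and 330 (4.64 ± 0.20), and the polcalcin-type gene Os08g0560700 rose by 2.70 ± 0.16. All 3 DEGs described as inhibitors of pectin methylesterase rose, Os05g0543000 from 31.1, 20 and 20.2 to 1326, 1232 and 1076 (5.70 ± 0.27). All 5 DEGs described as pectinesterases fell. Os10g0351700, described as a tapetum-specific endoxylanase, rose from 207, 167 and 193 to 1904, 1269 and 1773 (3.11 ± 0.16). The haem peroxidase Os03g0152300 was very dim in controls, at 5.68, 6.22 and 4.68, and reached 289, 315 and 275 (5.74 ± 0.22, adjusted p = 3.29e-17).

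**Figure D2:**
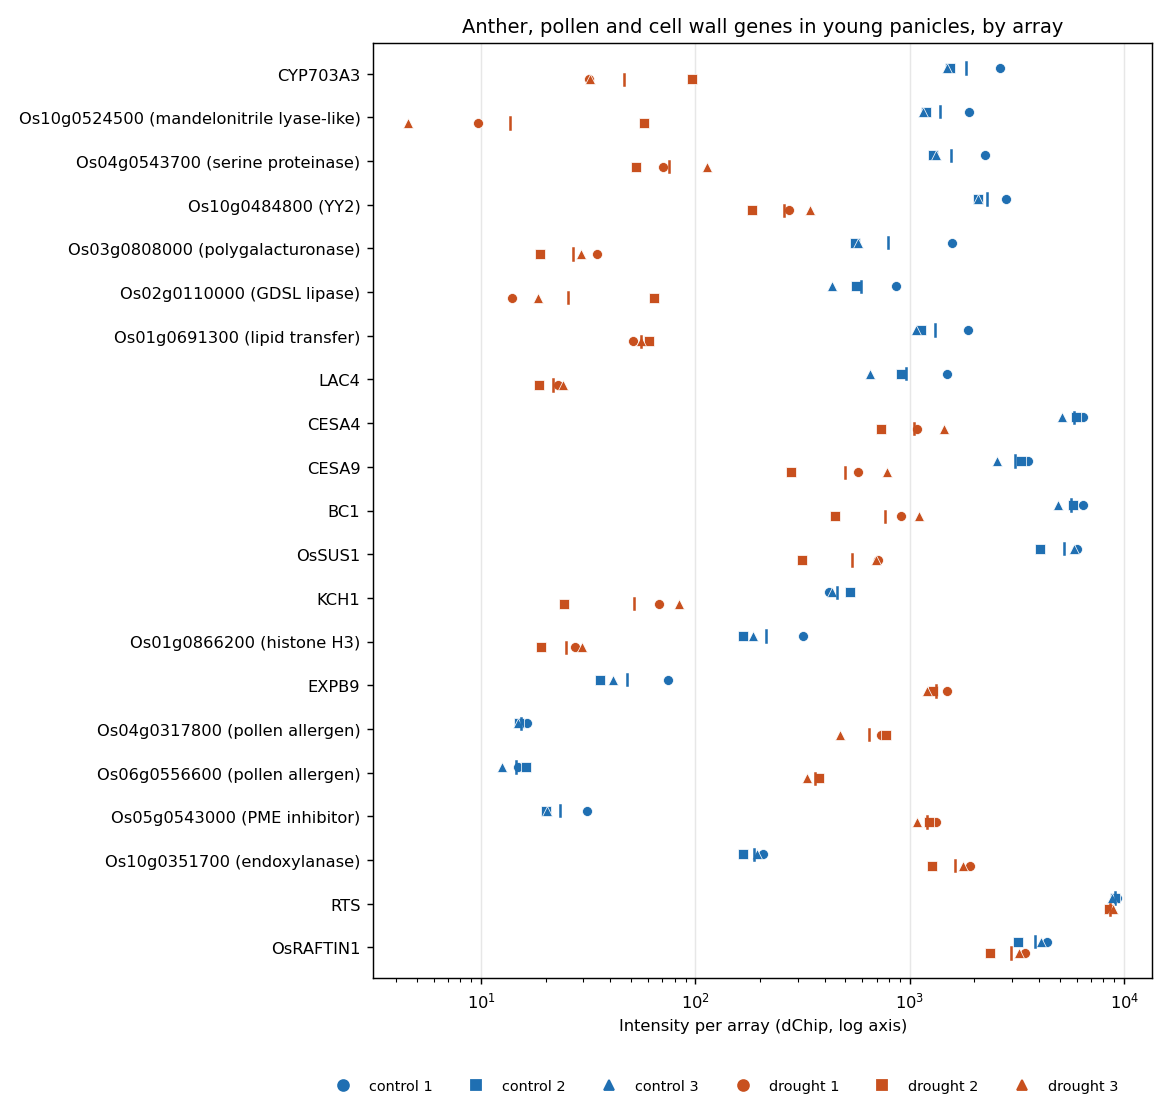
Intensity of 21 anther, pollen and cell wall genes on each of the 6 young panicle arrays, on a log axis; blue symbols are controls, orange symbols droughted plants, the symbol shape gives the replicate number and the vertical tick the geometric mean of 3 arrays. The groups are far apart in opposite directions for CYP703A3 (1485 to 2627 against 31.8 to 96.7) and EXPB9 (35.7 to 74.5 against 1202 to 1485), while RTS lies between 8461 and 9256 in both.

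Among enzymes that build the cell wall, falls outnumbered rises, as they did over all probe sets (6.12% lower and 4.22% higher at 2-fold). Of the cellulose and glucan synthase probe sets 15.8% passed at 5-fold and 55.3% at 2-fold, against 1.64% and 10.3% of all probe sets. Of 38 probe sets for cellulose synthases and related glucan synthases, 6 were down- and 0 up-regulated, and at 2-fold 18 were lower and 3 higher (median -0.95). CESA4, CESA9 and the COBRA-like protein BC1, known in rice for secondary walls, were among them. CESA9 fell from 3545, 3307 and 2537 to 572, 278 and 785 (-2.63 ± 0.33, adjusted p = 2.48e-07), and BC1 from 6439, 5778 and 4910 to 912, 447 and 1104 (-2.89 ± 0.34). CESA4 fell from 6436, 5980 and 5102 to 1077, 735 and 1438 (-2.48 ± 0.19), with -1.84 ± 0.35 at its other probe set. CESA6 fell by 2.52 ± 0.18. The glucan synthase genes OsCslF8, at 259, 238 and 204 against 21.4, 12.7 and 21.6 (-3.69 ± 0.34), and CSLF2 (-2.97 ± 0.53) also fell. Drought replicate 2 was the lowest array for all 6. Without it 3 of the 6 passed at 5-fold, and CESA9, CESA6 and CESA4 came to -2.21, -2.26 and -2.22, while 17 were still lower at 2-fold.

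Of 20 probe sets for other wall enzymes 7 were down-regulated, and 11 were lower and 2 higher at 2-fold (median -1.52). Their core was UDP-glucose dehydrogenase, which makes the sugar nucleotide for xylans and pectins. Os-UGD4 fell from 7201, 7271 and 7173 to 1001, 520 and 1068 (-3.13 ± 0.24), Os-UGD3 from 3895, 3819 and 3630 to 472, 332 and 601 (-3.05 ± 0.23), and the 3 probe sets of Os-UGD5 fell by 2.52 to 2.64. The xyloglucan-modifying OsXTH8 and the glucanase GLU10 each gave -2.33 and missed 5-fold without control replicate 1, at -2.23 and -2.21, which left 5 of the 7. GLU10 also missed it without drought replicate 2 (-1.97).

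Expansins, which loosen the wall for growth, changed in both directions. EXPB3 went from 7912, 9229 and 9134 to 1237, 498 and 1393 (-3.20 ± 0.27), EXPB11 fell by 3.92 ± 0.27 and EXPB6 by 2.90 ± 0.25, so that 3 of 12 beta-expansin probe sets were down- and 1 up-regulated. Of 16 alpha-expansin probe sets 2 were down-regulated, EXP2 from 2829, 3024 and 2944 to 278, 126 and 297 (-3.75 ± 0.29) and EXP16, by 2.34 ± 0.21, which was -2.01 without drought replicate 2. Laccases, copper enzymes that couple lignin and other phenolics, gave 2 down-regulated of the 9 probe sets found by symbol: LAC4 went from 1495, 908 and 649 to 22.7, 18.6 and 24.1 (-5.47 ± 0.44, 44.3-fold) and LAC10 from 6646, 5642 and 5071 to 580, 272 and 764 (-3.54 ± 0.42). A further 2 genes that the study's tables describe as laccases fell, Os05g0458600 (-3.75) and Os01g0842500 (-4.24). The secretory peroxidase PRX74 fell from 6026, 4606 and 4719 to 394, 142 and 482 (-4.08 ± 0.33).

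**Figure D3:**
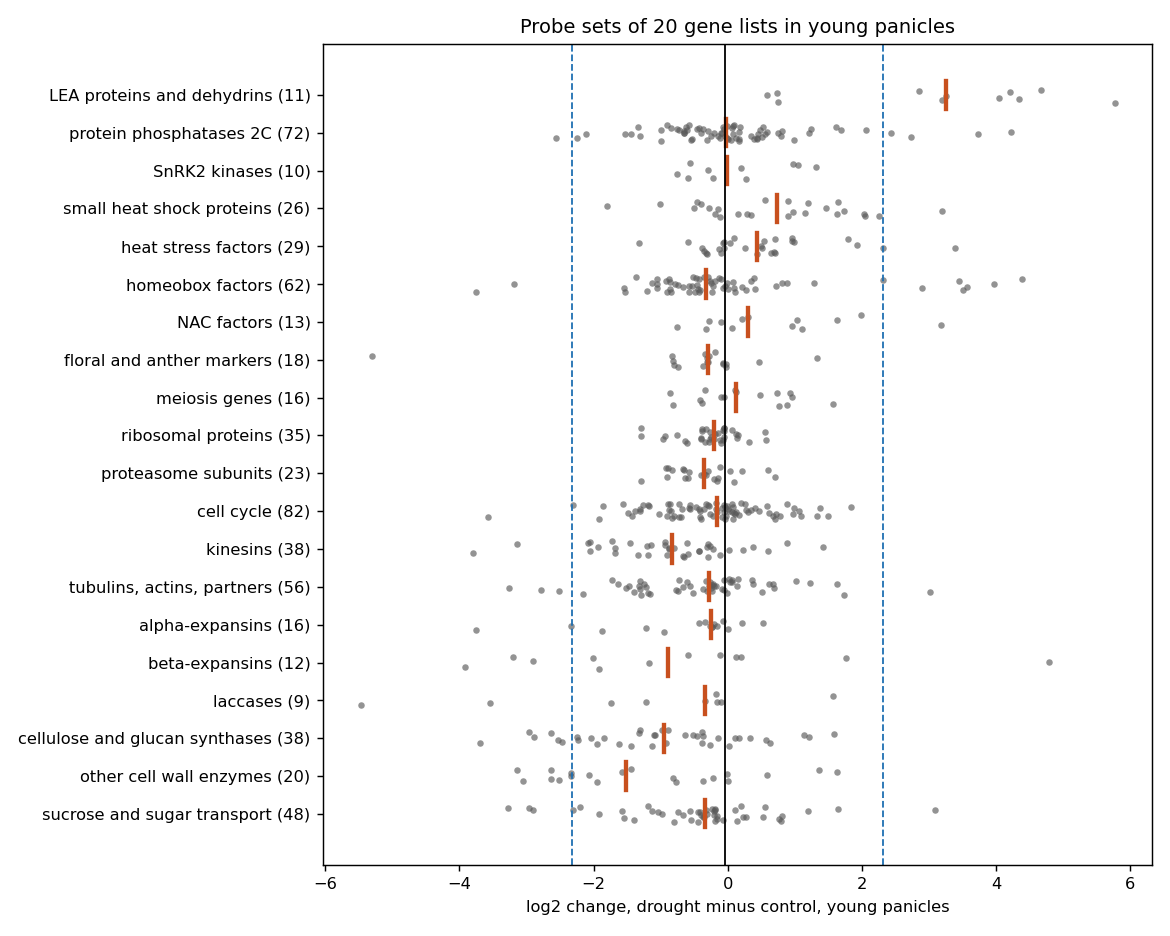
Log2 change (drought minus control) in young panicles of every probe set of 20 gene lists; each grey point is 1 probe set, the orange tick is the list's median, the number of probe sets stands in parentheses, the solid line is the median of all rice probe sets (-0.04) and the dashed lines mark 5-fold. LEA proteins and dehydrins lie to the right (median 3.25, and 2.23 without control replicate 1), and small heat shock proteins less far (0.73). Other cell wall enzymes, cellulose synthases, beta-expansins and kinesins lie to the left (-1.52, -0.95, -0.88 and -0.83). Most other medians lie nearer that of all probe sets.

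Falls also outnumbered rises among genes of the cytoskeleton and of sugar supply, as over all probe sets (6.12% lower and 4.22% higher at 2-fold). At 2-fold 39.5% of kinesin and 39.3% of tubulin and actin probe sets passed, against 10.3% of all probe sets. Among 38 kinesin probe sets, for motors that walk along microtubules, 2 were down-regulated, and at 2-fold 14 were lower and 1 higher (median -0.83). KIN14A fell from 427, 455 and 313 to 27.9, 26.9 and 30.2 (-3.80 ± 0.27) and KCH1 gave -3.15 ± 0.26. In the list of tubulins, actins and their partners, 17 of 56 were lower and 5 higher at 2-fold. The beta-tubulins OsTUB8 (-2.79 ± 0.24) and OsTUB6 (-2.52 ± 0.26, and -2.31 without drought replicate 2) and the actin-bundling villin VLN1 (-3.26 ± 0.21) were down-regulated. The actin-depolymerizing factor ADF9 was up-regulated from a very low level, 7.84, 5.48 and 7.4, to 48.2, 80.5 and 43.7, and its change of 3.02 ± 0.36 was 0.97 with the same higher floor.

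Sucrose synthase, which opens sucrose for cellulose and respiration, showed both directions. OsSUS1 fell from 9918, 9057 and 9114 to 1421, 755 and 1853 at 1 probe set (-2.90 ± 0.33) and by 3.28 ± 0.38 at the other, and OsSUS3 fell by 2.96 ± 0.24. OsSUS4 rose from 192, 291 and 252 to 1679, 2893 and 1815 (3.10 ± 0.53, adjusted p = 3.21e-05). CIN2, a cell wall invertase that unloads sugar into growing organs, gave 1426, 572 and 608 in controls and no more than 176 under drought (-2.21 ± 0.27, 4.62-fold). Over the 48 probe sets of sucrose enzymes and sugar transporters 12 were lower and 3 higher at 2-fold (31.25%, against 10.3% of all probe sets).

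A set of 5 histone genes that the study's tables name as panicle DEGs fell, namely the H3 genes Os01g0866200, from 316, 167 and 186 to 27.4, 19 and 29.4 (-3.11 ± 0.29), Os06g0160100 (-2.67 ± 0.30) and Os05g0438700 (-2.51 ± 0.24), and the H2A genes Os03g0279200 (-2.53 ± 0.20) and Os03g0162200 (-2.37 ± 0.33). Os05g0438700, Os03g0279200 and Os03g0162200 dropped under 5-fold without control replicate 1 (-2.31, -2.31 and -2.21), and Os03g0162200 also without drought replicate 2 (-2.17). Histone genes have near-identical copies, so their probe sets may read several at once. The 6 histone probe sets found by symbol gave 0 past 2-fold and a median of -0.12. Of 82 cell cycle probe sets, 14 were lower and 6 higher at 2-fold (24.4%, against 10.3% of all probe sets). The cyclin gene CYCP4-1 was the 1 past 5-fold (1.22%, against 1.64% of all probe sets), from 2185, 2078 and 2006 to 202, 122 and 221 (-3.57 ± 0.21). For comparison, 5.71% of 35 ribosomal protein and 4.35% of 23 proteasome probe sets passed at 2-fold. At 5-fold 0 passed in either list, which says little in lists this small, given 1.64% of all probe sets.

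Few hormone genes passed at 5-fold, and more passed at 2-fold. Of 74 auxin probe sets 5 were higher and 10 lower, of 36 for cytokinin 3 and 7, and of 39 for jasmonate 3 and 4. These are 20.3%, 27.8% and 17.9%, against 10.3% of all probe sets. Without drought replicate 2 the counts were 4 and 8 for auxin, 1 and 5 for cytokinin, and 0 and 4 for jasmonate. At 5-fold, SAUR39, a repressor of auxin synthesis and transport in rice, was up-regulated (from 9.67, 16.5 and 18.6 to 125, 367 and 112, 3.58 ± 0.43), and IAA31 (-2.62 ± 0.21, with 0.12 at another probe set) and ARF10 (-2.69 ± 0.31, with -0.41 at another) were down-regulated. The cytokinin response regulator OsRR1 fell by 2.46 ± 0.33. Os05g0560900, described as a gibberellin 2-beta-dioxygenase, an enzyme class that inactivates gibberellin, rose from 172, 105 and 84.7 to 680, 952 and 807 (2.80 ± 0.46). CCD8A, of the carotenoid cleavage enzymes that lead to strigolactone, fell from 999, 1071 and 956 to 111, 86.1 and 140 (-3.19 ± 0.39). None of 39 jasmonate, 14 ethylene or 21 flowering time probe sets passed at 5-fold. Of 42 probe sets for panicle form 1 passed at 5-fold, SPL16, a regulator of grain width, which fell by 2.33 ± 0.22, just past the minimum, and was at -1.91 without drought replicate 2.

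Transporters and metal proteins gave DEGs in both directions. Of 67 probe sets for metal transport and binding 2 were up- and 2 down-regulated (5.97%, against 1.64% of all probe sets), and 7 were higher and 6 lower at 2-fold. NRAMP5, a metal transporter of the NRAMP family, fell from 1774, 1789 and 1582 to 111, 95.6 and 120 (-3.98 ± 0.21, adjusted p = 1.93e-14), and the zinc transporter OsZIP3 from 294, 286 and 269 to 38.9, 45 and 39.9 (-2.78 ± 0.21), with 0.91 at its other probe set. The metallothioneins MT1B (3.51 ± 0.39) and MT4A (2.32 ± 0.30) rose. MT4A was under 5-fold without drought replicate 2 (1.97) or without control replicate 1 (2.19). Of 31 aquaporin probe sets 1 was up- and 2 were down-regulated at 5-fold (9.68%), and 1 was higher and 5 lower at 2-fold (19.4%). Over all probe sets the shares were 1.64% and 10.3%. The aquaporins OsPIP2;5, in the plasma membrane, and NIP4-1 fell (-2.86 ± 0.21 and -2.61 ± 0.39, NIP4-1 to -1.91 without drought replicate 2), and OsTIP3, of the vacuolar group, rose by 2.37 ± 0.42, which was 1.58 without control replicate 1 and 2.16 without drought replicate 2. NIP4-1 was all but restricted to panicles, with 3316, 2266 and 2403 in controls against group levels of 6.24 to 18.2 in leaves and roots. Among 56 probe sets of nutrient transport, the potassium transporter HAK4 (-2.95 ± 0.34) and the phosphate transporter OsPht1;8 (-2.56 ± 0.35, with -2.10 and 0.47 at its other probe sets) fell. Of 84 redox probe sets, OsNrx2 (3.32 ± 0.25) and GRXC10 (2.89 ± 0.48) rose, and PRX74 and the glutaredoxin GRXS2 (-2.44 ± 0.23, and -2.19 without control replicate 1) fell. The serine acetyltransferase gene SAT1, for a step of cysteine synthesis, rose from 115, 110 and 96.3 to 3172, 3297 and 3420 (4.95 ± 0.38), and GER2 rose by 5.14 ± 0.70, from 45, 114 and 155 to 2826, 4992 and 2473. Of 98 probe sets for calcium sensors and calcium-dependent kinases 8 were higher and 18 lower at 2-fold (26.5%, against 10.3% of all probe sets). Without drought replicate 2 these counts were 3 higher and 15 lower. At 5-fold 1 was down-regulated (1.02%), CML5, at intensities of 40.1 and less, and its change of -2.53 was -0.49 with the higher floor. Its other probe set gave -1.01 ± 0.30.

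The panicle was then set against the other organs. The drought change in panicles minus the mean of the drought changes in leaves (3 stages) and roots (2 stages) was tested in the same model, and no control array is shared between these comparisons. By the same call rule 728 probe sets differed (1.27%), 273 of them with a higher change in panicles (0.477%) and 455 with a lower one (0.795%). Of the 371 up-regulated probe sets, 102 had a higher difference, 10 a lower one and 259 none. Of the 570 down-regulated probe sets, 241 had a lower difference, 0 a higher one and 329 none. A further 171 higher and 204 lower differences belonged to probe sets that were not called in panicles.

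By calls alone, without a test of the difference, 77 of the 371 up-regulated probe sets were up-regulated in all 5 other comparisons and 124 in none. Of the 570 down-regulated, 0 were down-regulated in all 5 and 394 in none. The overlap was largest with leaves at panicle elongation for rises, 204 probe sets, which were 55% of the panicle's rises and 13.6% of that leaf's. For falls it was largest with leaves at tillering, 94 probe sets (16.5% of the panicle's and 14.8% of that leaf's). Leaves and panicles taken at booting moved oppositely at 7 probe sets. The P450 gene Os08g0547300 rose in panicles (202, 338 and 263 to 2418, 2320 and 3006, 3.29 ± 0.25) and had a change of -3.94 in booting leaves. The lipid transfer genes Os03g0793800 (-3.30 against 2.48) and Os07g0175600 (-2.71 against 2.47) and the Hly-III related gene Os06g0652200 (-3.27 against 2.84) fell in panicles and rose in those leaves.

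Most of the named dehydration genes had no called difference from the other organs. RAB16B differed by -1.22 ± 0.67 from the mean of the other 5 changes (adjusted p = 0.192), HOX24 by -0.32 ± 0.35, PP2C68 by 0.03 ± 0.37 and HSF05 by -0.27 ± 0.58, and none of these passed, which does not show that they responded alike. Among the lists of LEA proteins and dehydrins, protein phosphatases 2C and heat stress factors, the called differences were lower in panicles, at LEA19 by -3.35 ± 0.97 (adjusted p = 0.0094) and OsPP2C51 by -2.42 ± 0.22 (adjusted p = 1.29e-09). The LEA19 difference was -4.85 without control replicate 1 and did not pass without control replicate 2 (-2.57, adjusted p = 0.0709) or 3 (-2.63, adjusted p = 0.0652), and that of OsPP2C51 was just under 5-fold without drought replicate 1 (-2.27) or control replicate 2 (-2.31). Of the 26 small heat shock probe sets 5 had a lower difference, among them both of HSP18.1 (-2.72 and -2.40), and 0 a higher one. The second of these was under 5-fold without control replicate 2 (-2.25), control replicate 3 (-2.22) or drought replicate 3 (-2.31).

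Among the lists of the cell wall and the anther, some had called differences in both directions. Of 9 laccase probe sets 1 had a higher and 2 a lower difference, and of 12 beta-expansin probe sets 1 and 1. Called differences were 0 of 38 for cellulose and glucan synthases and 4 of 20 for other wall enzymes, all lower. Over all probe sets the share was 1.27%. The anther list had 1 of 15. That 1, CYP703A3, had changes of -0.20 to 2.07 elsewhere and differed by -6.05 ± 0.34 (adjusted p = 1.58e-13), Os10g0524500 by -6.93 ± 0.54, LAC4 by -4.30 ± 0.48 although it also fell in leaves at tillering, and the laccase Os01g0842500, at 2852, 3045 and 2566 against 164, 110 and 182, by -4.98 ± 0.31. Rises of the pollen allergens and of EXPB9 differed as far in the other direction, by 5.37 ± 0.21 for Os04g0317800 and 4.48 ± 0.19 for EXPB9. In contrast, EXP2 and EXPB3 fell in panicles as they did in leaves, with differences of -0.42 ± 0.32 and 0.72 ± 0.30 that did not pass. The differences of CESA6 (-1.14 ± 0.20), BC1 (-1.18 ± 0.38) and OsTUB8 (-0.60 ± 0.26) did not reach 5-fold either.

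**Figure D4:**
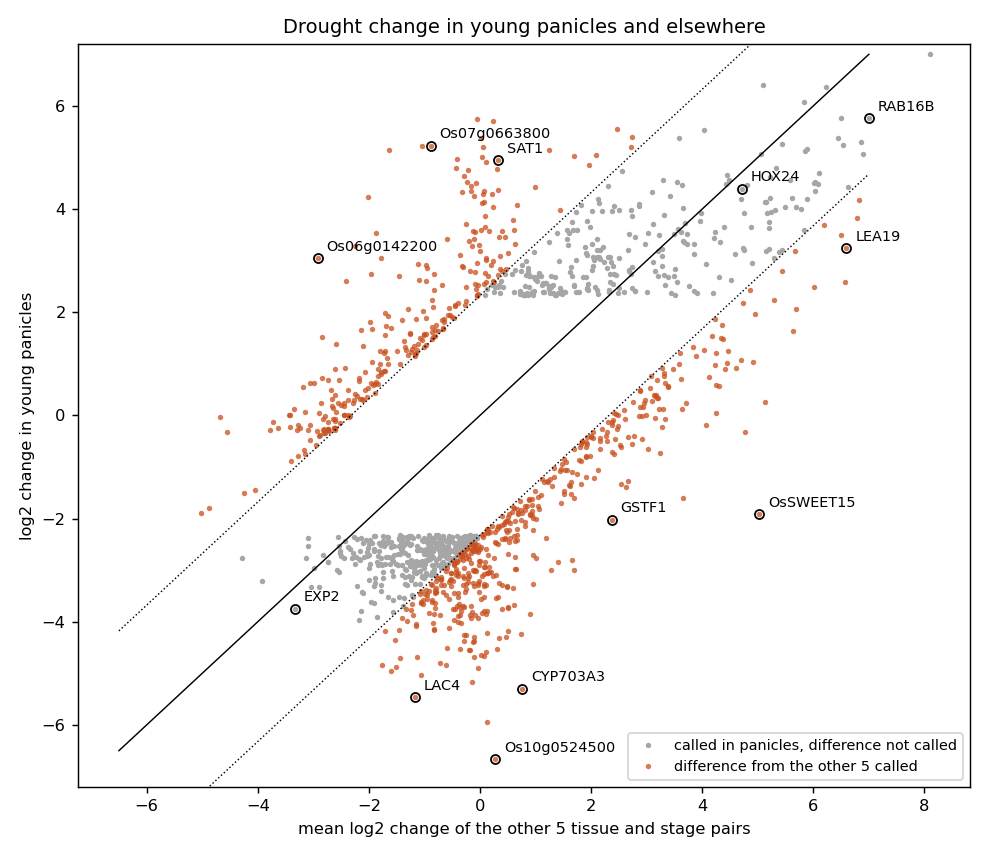
Log2 drought change in young panicles against the mean log2 drought change of the other 5 tissue and stage pairs, for probe sets called in panicles or by the difference; orange points have a called difference, grey points do not, the solid line marks equal change and the dotted lines a 5-fold difference. RAB16B and HOX24 lie within the dotted lines, OsSWEET15 (-1.91 in panicles) and Os10g0524500 (-6.66) far below them.

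Several genes were opposed between organs. OsSWEET15, a sucrose exporter, went from 3116, 2331 and 2244 to 814, 445 and 840 in panicles (-1.91 ± 0.50, adjusted p = 0.0042, under 5-fold), while its changes elsewhere ran from 2.20 to 7.37, and the difference of -6.94 ± 0.55 was the largest of a named gene. GSTF1, a glutathione transferase, changed by -2.02 ± 0.45 in panicles and by 1.19 to 3.39 elsewhere (difference -4.39 ± 0.50). The ENOD93 family gene Os06g0142200 rose from 101, 132 and 133 to 1044, 1014 and 937 (3.04 ± 0.24), with changes of -1.46 to -5.01 elsewhere (difference 5.96 ± 0.26). Os07g0663800, a short-chain dehydrogenase, rose from 47.8, 58.3 and 61.9 to 1452, 4129 and 1521 (5.23 ± 0.71), with falls in 3 of the other 5 (difference 6.12 ± 0.78). Os01g0919200, described as of the FtsZ family, was dim in every leaf and root group, and no opposite change is claimed for it. In panicles it went from 76.5, 35.9 and 45.5 to 1722, 1444 and 1564 (4.98 ± 0.27) and differed by 5.40 ± 0.30.

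**Figure D5:**
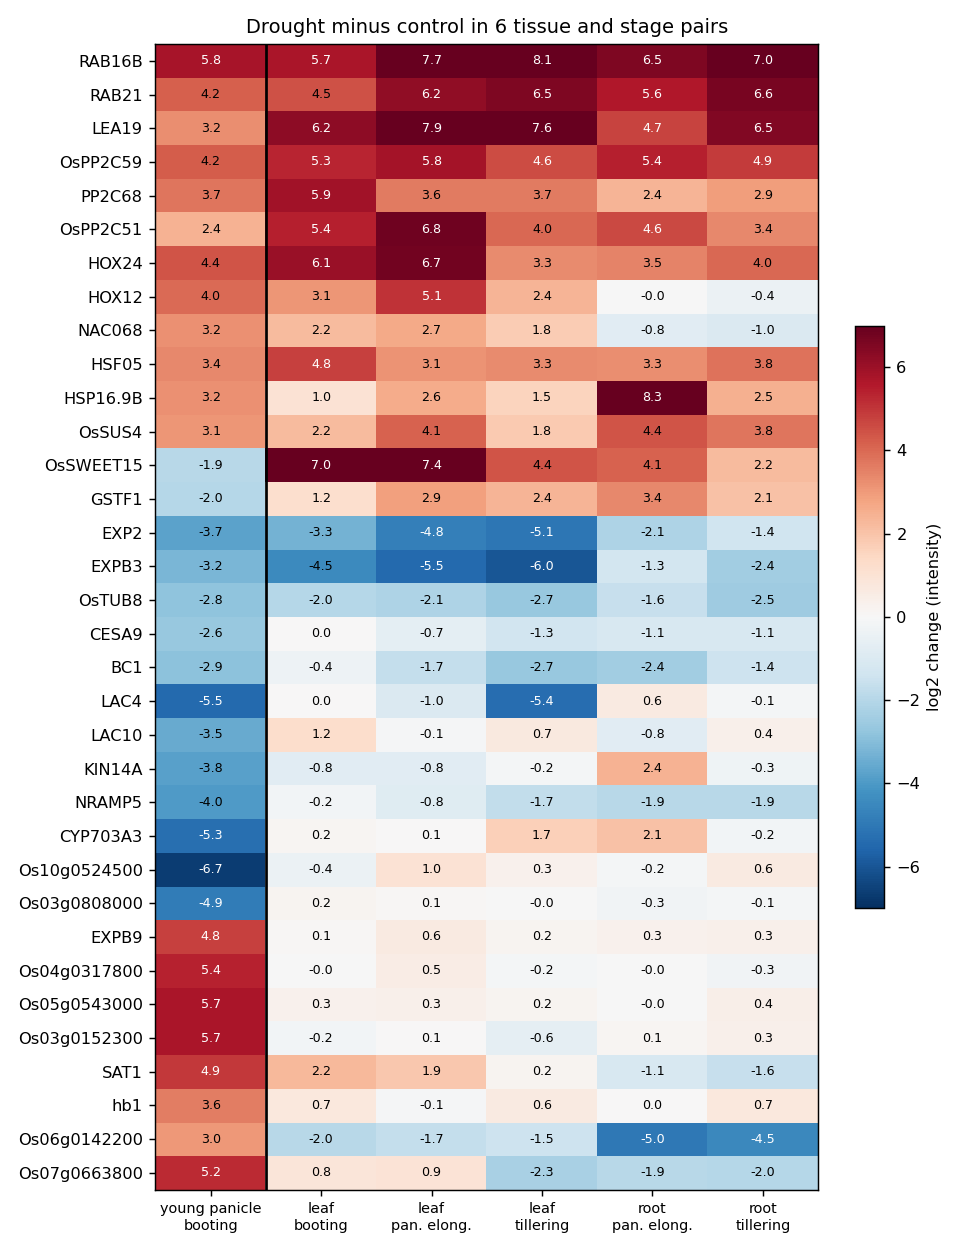
Log2 change, drought minus control, of 34 genes (rows) in the 6 tissue and stage pairs (columns, young panicle at booting first); red is higher and blue lower under drought, with the value printed in each cell. Dehydration genes at the top are red in all columns apart from HOX12 and NAC068 in roots, OsSWEET15 is blue in panicles alone, and CYP703A3 to Os03g0152300 are strongly coloured in the panicle column.

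Part of the falls were in genes with a higher level in control panicles than in the other organs. Of the 570 down-regulated probe sets, 198 had a control panicle level 5-fold or more above each of the 10 leaf and root groups, as did 671 of all rice probe sets. Of these 671, 29.5% were down-regulated and 1 probe set was up-regulated. The control level is part of the contrast, so this is given as a description. Of the 371 up-regulated probe sets, 44 reached a droughted level 5-fold or more above each of the 10 groups, as did 347 of all rice probe sets. EXPB9 (23.1 to 35.1 elsewhere), Os05g0543000 (14.8 to 25.8) and Os10g0351700 (25.6 to 51.7) were among the 44. The droughted level is likewise part of the contrast, so this too is a description.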

How the data were processed

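Affymetrix rice genome arrays measured RNA of 12 groups of DK151 plants with 3 arrays a group, and 6 of them hold young panicles. The authors made CEL files in GCOS1.4 and brought the arrays to a common scale by dChip's invariant-set normalization. They deposited linear intensities, 1 per probe set and array. The version of dChip and its use of mismatch probes are not given in the sources used here. The number of arrays limits the precision, and no read depth applies. Each array was assigned by its deposited label, and no column was left out.

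The 123 control probe sets of the array maker were removed, any value below 1 became 1, and log2 followed. All 57258 rice probe sets were fitted with limma 3.58.1 in R 4.3.3, as 12 group means (24 residual and 3.76 prior degrees of freedom), and p-values were adjusted over all probe sets by the Benjamini-Hochberg method. The same model gave the panicle change minus the mean of the other 5 changes. An exact permutation test of 3 against 3 arrays was not used, since its smallest two-sided p is 0.10. The script was tested on simulated data with known changes. Means in the text are of log2 values, and ± after a log2 change is the standard error.

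Genes were named through the platform's annotation and a RefSeq gene table (22436 probe sets with 1 gene, 95 with several, 34727 with none), and descriptions come from the study's tables. Columns of fold changes there were not used. A gene with several probe sets has each given or counted, and lists are counted in probe sets. The text names the 12 largest named rises and falls, the called list members with the largest change, genes the study names for the panicle, and the 6 largest differences each way; other list members were picked with their values in view. The members, lists and tests were chosen with earlier results of these data known, and no list was tested as a set.

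Alternatives changed the test (the methods' t-test, a variance trend with intensity, the replicate number as a block), the fold minimum, the arrays (the 6 of the panicle alone, or each of these left out), the scale (median centring or quantile normalization, or all values raised to the 25th percentile, 28.3) and the probe sets (no dim ones, none of several transcripts, or 1 per gene). The methods describe a split-plot design with pots randomized in blocks, but neither labels nor methods say what a replicate number marks. Deviations of droughted and control panicle arrays of the same number correlated at -0.01, -0.11 and -0.04, so the numbers were not taken to pair the arrays. Arrays of different numbers correlated at -0.14 to 0.20, and a pairing by block under another numbering was not tested. Detection calls and sequences were not used here.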

Additional observations from a re-analysis of the deposited data

Results flagged for a closer look

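The 12 named genes whose drought change in young panicles lay farthest from the mean change of the leaves and roots are given here because that difference passed a test of its own in the limma model. Lower in panicles than elsewhere were OsSWEET15 (-6.94), Os10g0524500 (-6.93), CYP703A3 (-6.05), Os02g0308400 (-5.03), the laccase Os01g0842500 (-4.98) and Os03g0808000 (-4.86), as log2 differences. OsSWEET15 is the 1 of these that did not change 5-fold within panicles. Higher in panicles than elsewhere were Os07g0663800 (6.12), Os06g0142200 (5.96), Os03g0152300 (5.80), Os08g0547300 (5.55), Os05g0543000 (5.46) and Os01g0919200 (5.40). For Os10g0524500, Os02g0308400, Os03g0808000, Os03g0152300, Os05g0543000 and Os01g0919200 no leaf or root group exceeded an intensity of 28.8. Groups of 3 arrays are too small for a test of single outlying arrays.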

How the results depend on the processing

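Of 57258 probe sets, 941 changed in panicles and 728 differed from the other 5 changes. A 2-fold minimum gave 5919 (2414 higher, 3505 lower) and 5978 (2687 higher, 3291 lower), and no minimum gave 15379 (6637 and 8742) and 15721 (8250 and 7471). With 1 probe set for each of 17905 genes there were 616 (224 higher) and 456 (165 higher, 291 lower), over fewer probe sets. Leaving out each array in turn gave 749 to 1079 changed (309 to 403 higher, 440 to 677 lower) and 676 to 810 that differed (243 to 301 higher, 433 to 509 lower). All other alternatives kept these counts within 1.5 times: the methods' t-test gave 931, or 900 after Benjamini-Hochberg, the 6 panicle arrays alone 939, the floor at the 25th percentile 876, quantile normalization 898 and median centring 928. With the replicate number as a block, a pairing that neither labels nor deviations bear out, 941 changed and 731 differed. Over 129 results for named genes, 1536 values were recomputed, of which 0 reversed and 55, in 27 results, dropped under the call. Of these, 15 came without drought replicate 2 and 13 without control replicate 1. The largest drops outside those were with the higher floor, to 0.97 at ADF9 and -0.49 at CML5, since dim probe sets are bounded by it. The same floor brought HAK4 to -2.17, Os04g0317500 to 2.18 and Os03g0162200 to -2.17. RAB21 had an adjusted p of 0.0532 in the limma fit of the 6 panicle arrays alone.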
